A study of Mus musculus with 12 samples.

Results

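Autophagy encloses cytoplasm in a membrane-bound vesicle, the autophagosome, and delivers it to the lysosome, where acid hydrolases break it down and release amino acids, fatty acids and sugars. The pathway runs in steps, from the ULK kinase complex through the class III phosphatidylinositol 3-kinase complex and membrane supply to the conjugation of ATG8 proteins (LC3 and GABARAP) to lipid, with receptors that tie cargo to ATG8 and with TFEB and TFE3 as transcription factors of autophagy and lysosome genes. The liver is known as an organ in which fasting raises autophagic breakdown of protein, glycogen and organelles. The 46 genes described here were chosen by symbol as members of these steps: 4 of initiation, 6 of nucleation, 5 of lipid transfer and phosphoinositide binding, 10 of conjugation, 5 ATG8 proteins, 5 receptors, 2 regulators and 9 lysosomal enzymes and membrane proteins. All 46 were among the 24537 genes of the deposited table, and all 46 passed the filter on low values that left 10593 genes to test.

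Liver mRNA was sequenced in 12 male C57Bl/6J mice that entered the study at 6 weeks of age and were housed singly, with 3 mice in each of 4 groups. Con mice had the NIH41 diet ad libitum, and mice under calorie restriction (CR) had 30% less of a fortified NIH41 diet, given daily at noon, for 25 or 30 days. The diet's formulation, its amount and its timing therefore cannot be told apart. The study compared these days because they lie before and after the point at which hepatic protein synthesis slowed under CR, and the hour of tissue collection was not found in the sources used here. Mice are called by the columns of the deposited table, Con7 to Con9 and CR7 to CR9 at day 25 and Con10 to Con12 and CR10 to CR12 at day 30.

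The libraries held 15748705 to 23345559 reads, as recovered from the steps of low values. Levels are FPKM, which divide a gene's exon reads by its exon length and by library depth, so that levels can be compared between genes. Fold changes are differences of log2(FPKM + 1), CR over Con, with the standard error (SE) of a limma model across all genes, and a gene is said to have risen or fallen where its Benjamini-Hochberg adjusted p over all genes tested was under 0.1. Hepatocyte markers (Alb, Apoa1, Ttr, Hnf4a, Cps1, Asgr1) summed to 35813 to 62585 FPKM in the 12 libraries. In these bulk samples fewer cells of a type and less RNA per cell cannot be told apart.

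Many lysosomal genes carry an E-box in their promoter, the sequence CACGTG that TFEB and related factors are known to bind, and the longer form TCACGTGA is the core of the element known from the lysosomal gene network. RefSeq promoters of mouse build GRCm38.p6 (the same assembly as mm10), from 250 bases before to 50 bases after the start, were matched to 36 of the 46 genes. CACGTG lay in 10 of the 36 (27.8%), namely Atg14, Atg3, Atg5, Bnip3, Ctsa, Ctsd, Ctsl, Gaa, Lamp1 and Mcoln1, against 10.7% of 7965 promoters of genes tested and 8.07% of 17033 promoters in all. TCACGTGA, which contains CACGTG, lay in 4 of the 36 (11.1%: Atg3, Ctsa, Ctsd, Mcoln1), against 2.23% and 1.33%. Both motifs read the same on either strand. GTAAACA, a core bound by FOXO factors, was searched on both strands and lay in 0 of the 36, against 2.61% of promoters of genes tested and 3.04% of all. The 150 bases before the start are shown for 5 of the genes with CACGTG that rose or fell under CR (Bnip3, Mcoln1, Gaa, Ctsa, Atg5) and for 2 that did not pass the test (Lamp1, Ctsd), 5′ to 3′ on the strand of the gene and with CACGTG in capitals:
Bnip3, chr7:138909507-138909656, minus strand: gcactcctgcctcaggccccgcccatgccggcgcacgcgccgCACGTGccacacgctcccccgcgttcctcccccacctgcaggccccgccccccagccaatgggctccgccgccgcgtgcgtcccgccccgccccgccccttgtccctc
Mcoln1, chr8:3500369-3500518, plus strand: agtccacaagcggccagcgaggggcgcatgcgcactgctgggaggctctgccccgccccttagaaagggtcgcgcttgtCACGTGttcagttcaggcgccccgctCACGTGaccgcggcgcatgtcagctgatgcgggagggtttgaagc
Gaa, chr11:119267813-119267962, plus strand: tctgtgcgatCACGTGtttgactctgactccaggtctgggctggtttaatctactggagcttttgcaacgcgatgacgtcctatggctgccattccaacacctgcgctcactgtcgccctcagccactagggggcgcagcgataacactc
Ctsa, chr2:164833623-164833772, plus strand: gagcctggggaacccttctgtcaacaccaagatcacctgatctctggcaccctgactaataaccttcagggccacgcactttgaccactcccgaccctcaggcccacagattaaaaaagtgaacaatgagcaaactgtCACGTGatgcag
Atg5, chr10:44268189-44268338, plus strand: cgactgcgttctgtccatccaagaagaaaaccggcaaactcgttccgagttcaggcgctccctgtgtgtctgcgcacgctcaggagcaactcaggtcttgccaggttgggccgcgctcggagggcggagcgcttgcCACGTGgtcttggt
Lamp1, chr8:13159011-13159160, plus strand: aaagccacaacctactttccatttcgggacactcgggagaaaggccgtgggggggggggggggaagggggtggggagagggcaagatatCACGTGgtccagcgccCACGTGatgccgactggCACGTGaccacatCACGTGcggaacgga
Ctsd, chr7:142387828-142387977, minus strand: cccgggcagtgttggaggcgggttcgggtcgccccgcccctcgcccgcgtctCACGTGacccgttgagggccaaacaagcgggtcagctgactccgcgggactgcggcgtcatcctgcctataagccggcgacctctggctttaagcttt
Lamp1 has 4 copies of CACGTG in these 150 bases, Mcoln1 has 2, and the other 5 genes have 1 each. These matches are a description of letters and do not show that a factor was bound.

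The 46 genes covered more than 2 orders of magnitude in liver. In the 6 Con mice, 7 genes had a mean of at least 100 FPKM, 22 lay between 10 and 100 FPKM and 17 under 10 FPKM, with a median of 14.7 FPKM against 6.39 FPKM over all genes tested. The most abundant were the lysosomal membrane proteins Lamp1 (252 FPKM) and Lamp2 (232 FPKM), the ATG8 protein Gabarapl1 (222 FPKM), the receptor Sqstm1 (174 FPKM), the proteases Ctsl (169 FPKM) and Ctsd (140 FPKM), and Gabarap (139 FPKM). The upstream machinery was far lower, with Becn1 at 26.2 FPKM, Atg7 at 15.3 FPKM, Ulk1 at 15.2 FPKM and Pik3r4 at 5.41 FPKM. Lowest were Tfeb at 3.04 FPKM, the conjugating enzyme Atg10 at 2.28 FPKM and the row named Atg4a at 1.11 FPKM. The row named Atg4a had only 30 to 54 reads per library and lies on a retrocopy, so its value cannot be assigned to Atg4a.

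**Figure D1:**
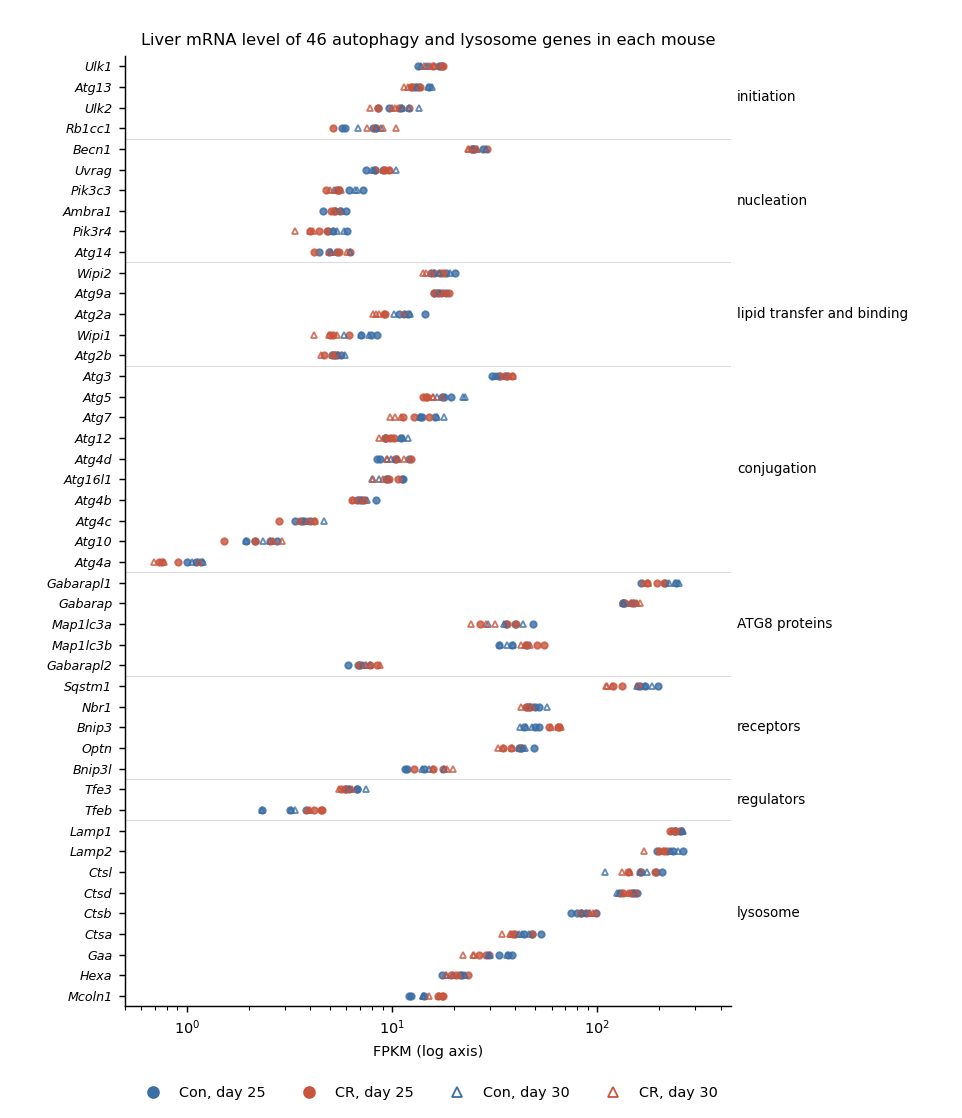
FPKM of each of the 46 genes in each of the 12 mice on a log axis, grouped by step of the pathway, with Con mice in blue and CR mice in red, filled circles for day 25 and open triangles for day 30. The spread between genes, from 1.11 FPKM for the row named Atg4a (on a retrocopy) to 252 FPKM for Lamp1 in Con mice, is far wider than the spread between diets within a gene.

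Under CR, a minority of the genes changed, in both directions and by modest amounts. At day 25, 4 genes rose (Map1lc3b, Bnip3, Tfeb and Mcoln1) and 3 fell (Sqstm1, Wipi1 and Gaa). This is 7 of 46 genes (15.2%), where 14.9% of all genes tested passed, 5.6% as higher and 9.34% as lower. By day 30, 1 gene was higher (Bnip3) and 9 were lower (Atg2a, Atg5, Atg7, Pik3r4, Gabarapl1, Sqstm1, Optn, Wipi1 and Gaa), which is 10 of 46 (21.7%) where 24.7% of all genes tested passed, 8.33% as higher and 16.4% as lower. The share of these genes that passed was thus near that of the transcriptome at both days. The median fold change of the 46 genes was -0.05 at day 25 and -0.09 at day 30, beside -0.04 and -0.07 over all genes tested. No gene of the 46 passed with a log2 fold change of 1 or more in either direction, a size that 1.48% of genes tested reached at day 25 and 2.21% at day 30.

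**Figure D2:**
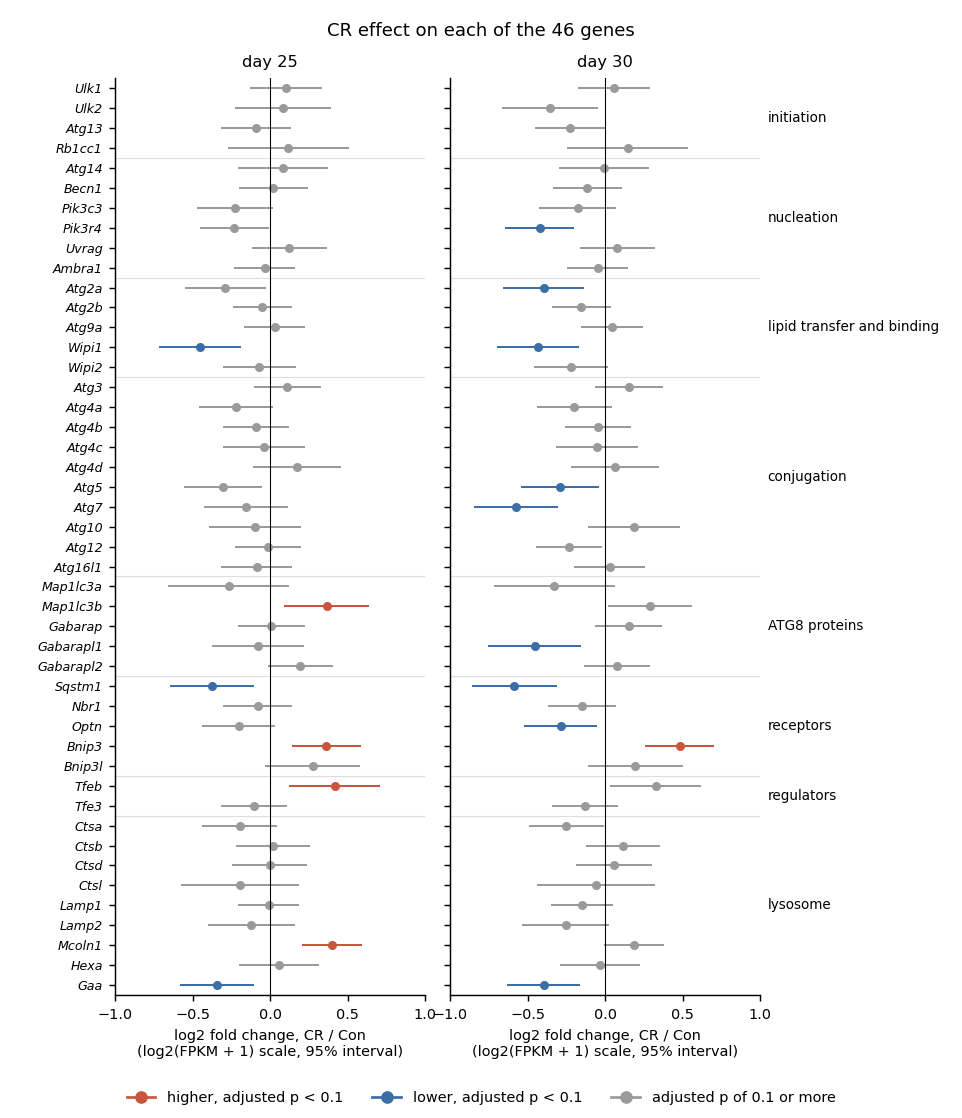
Log2 fold change of CR over Con (log2(FPKM + 1) scale) with its 95% interval for each of the 46 genes at day 25 (left) and day 30 (right), ordered by step, with red for genes that rose, blue for genes that fell and gray for genes that did not pass the test. Bnip3 is the only gene in red at both days, and Sqstm1, Wipi1 and Gaa are blue at both.

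The direction of the calls at day 30 depended on how libraries were scaled. FPKM as deposited carry no scaling between libraries, and median-ratio factors ranged from 0.954 to 1.07, with 2 of the 3 lowest in CR mice at day 30. With these factors 5 genes were higher at day 30 (Bnip3, Tfeb, Map1lc3b, Mcoln1 and Gabarap) and 7 lower, in place of 1 and 9. All genes tested moved the same way, to 12.5% higher and 11.9% lower, so the shift is not particular to these genes. Quantile normalization gave 4 higher and 10 lower (11.8% and 11.5% of genes tested). At day 25 the median-ratio factors gave 5 higher and 2 lower (8.07% and 8.06% of genes tested). The falls of Sqstm1, Wipi1, Gaa, Atg7, Pik3r4, Gabarapl1 and Atg2a at day 30 and the rise of Bnip3 passed under each of these scalings.

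When CR was compared with Con over both days in a model with day as a covariate, 19 of 46 genes passed (41.3%, against 40.6% of genes tested), 5 as higher (14.5% of genes tested) and 14 as lower (26.1%). The higher genes were Map1lc3b, Bnip3, Bnip3l, Tfeb and Mcoln1. The lower genes were Atg2a, Atg4a, Atg5, Atg7, Atg13, Pik3c3, Pik3r4, Map1lc3a, Gabarapl1, Sqstm1, Optn, Wipi1, Ctsa and Gaa. The row named Atg4a lies on a retrocopy and cannot be assigned to that gene. With median-ratio scaling the same model gave 10 higher and 10 lower (20.4% and 19.6% of genes tested), and with quantile normalization 7 higher and 13 lower (19.3% and 18.8%). The model rests on the same mice as the comparisons at each day.

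Counting mice instead of fitting a model, the 3 CR mice all lay above the 3 Con mice at day 25 for 3 genes (10.2% of genes tested did so) and all below for 7 genes (18.0%). At day 30 they lay above for 6 genes (12.1%) and below for 15 genes (24.3%). In all, 7 genes did so in the same direction at both days, Bnip3, Tfeb and Mcoln1 above and Pik3r4, Sqstm1, Wipi1 and Gaa below, which is 15.2% of the 46 where 18.0% of genes tested did so.

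Sqstm1 (chr11:50200152-50210820), which encodes p62, the receptor that binds ubiquitinated cargo and is itself degraded by autophagy, fell at both days. At day 25 its level was 161, 198 and 172 FPKM in Con7 to Con9 and 119, 133 and 157 FPKM in CR7 to CR9. At day 30 it was 184, 156 and 172 FPKM in Con10 to Con12 and 118, 111 and 110 FPKM in CR10 to CR12. Each CR mouse lay below each Con mouse of its day, with CR9 close to Con7 at day 25. The mean fell by 22.9% at day 25 (log2 fold change -0.38, SE 0.12, adjusted p = 0.076) and fell by 33.7% at day 30 (-0.59, SE 0.12, adjusted p = 0.0075). The call at day 25 was lost without Con8, Con9, CR7 or CR8 (adjusted p = 0.20, 0.14, 0.23 and 0.15), and with median-ratio scaling (adjusted p = 0.10). It was also lost without a filter on low values and with that day's mice alone. The call at day 30 held whichever mouse was left out. A share of 20.5% of the exon bases of Sqstm1 overlaps Mrnip on the opposite strand, which had a mean of only 3.37 FPKM, and whether reads were counted by strand is not given in the sources used here.

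Bnip3, a receptor for mitochondria, rose at both days. Bnip3 (chr7:138890836-138909506), an outer mitochondrial membrane protein that binds LC3 and is known as a target of hypoxia and fasting signals, was at 52.1, 44.1 and 49.8 FPKM in Con7 to Con9 and at 64.8, 58.0 and 65.5 FPKM in CR7 to CR9. At day 30 the Con mice had 42.3, 45.0 and 48.2 FPKM and the CR mice 59.4, 66.4 and 64.5 FPKM. The groups did not overlap at either day. Its mean was 28.9% higher at day 25 (0.36, SE 0.10, adjusted p = 0.041) and 40.4% higher at day 30 (0.48, SE 0.10, adjusted p = 0.0073). The day 25 call was lost without Con8, CR7 or CR9 (adjusted p = 0.12, 0.12 and 0.13), under quantile normalization (adjusted p = 0.14) and with that day's mice alone. The day 30 call held in all 22 alternatives. Bnip3 has near-identical copies on chromosome 14, among them the pseudogenes Gm16439 and Gm6532, so reads may have been split among them. A share of 27.2% of the exon bases of Bnip3 overlaps the antisense gene Gm45507 on the opposite strand. Its relative Bnip3l (NIX) rose only over both days together (0.24, SE 0.09, adjusted p = 0.073), from group means of 12.6 to 15.5 FPKM at day 25 and 15.7 to 18.1 FPKM at day 30, and it too has a near-identical copy (Bnip3l-ps).

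Of the other 2 receptors, Optn, which binds ubiquitin on damaged mitochondria and bacteria, fell at day 30 and Nbr1, a partner of p62, did not pass. Optn was at 44.7, 43.7 and 41.8 FPKM in the Con mice and at 34.9, 38.5 and 33.0 FPKM in the CR mice at day 30, with no overlap. The fall of 18.3% (-0.29, SE 0.11, adjusted p = 0.085) was close to the threshold. It was lost with median-ratio scaling (adjusted p = 0.18), with that day's mice alone and without CR7, Con10, Con11, Con12, CR10 or CR12 (adjusted p = 0.11 to 0.20). At day 25 the groups overlapped, with 41.6, 42.4 and 49.5 FPKM in Con mice and 38.0, 42.6 and 34.8 FPKM in CR mice. For Nbr1 the fold change was -0.08 (95% interval -0.30 to 0.13) at day 25 and -0.15 (-0.36 to 0.07) at day 30. The 5 receptors together went from 314 to 348 FPKM in Con mice to 284 to 323 FPKM in CR mice at day 25, which overlap, and from 312 to 333 FPKM to 271 to 282 FPKM at day 30, which do not. At day 30 the mean of this sum went from 326 to 276 FPKM and that of Sqstm1 alone from 171 to 113 FPKM. The means of Bnip3 and Bnip3l were higher under CR.

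No initiation gene passed at a single day. Ulk1, the kinase that starts autophagy when nutrient signalling through mTORC1 falls, was at 13.5, 17.0 and 17.4 FPKM in Con7 to Con9 and at 15.9, 17.6 and 17.7 FPKM in CR7 to CR9. At day 30 the Con mice had 14.7, 15.0 and 13.8 FPKM and the CR mice 15.3, 14.3 and 15.995 FPKM. The groups overlapped at both days, and the interval of the fold change ran from -0.13 to 0.32 at day 25 and from -0.17 to 0.28 at day 30. Its paralog Ulk2 had lower values in all 3 CR mice than in all Con mice at day 30 (7.86, 10.03 and 10.4 FPKM against 11.1, 13.5 and 12.2 FPKM), with a fold change of -0.35 (SE 0.14) that missed the threshold (adjusted p = 0.10) and passed it without Con7, CR7, CR9 or CR12. Ulk2 also passed at day 30 with a filter of 5 FPKM, with that day's mice alone and in a fit of the recovered reads with voom. Atg13, the adaptor of the ULK complex, was lower over both days (-0.16, SE 0.07, adjusted p = 0.097), with group means of 13.9 and 12.9 FPKM at day 25 and 14.7 and 12.4 FPKM at day 30. At day 30 alone its adjusted p was 0.14, and it passed without CR11 (adjusted p = 0.092) and with TPM scaling. Rb1cc1, the scaffold FIP200, was at 6.56 FPKM in Con and 7.26 FPKM in CR at day 25, and at 8.03 FPKM and 9.01 FPKM at day 30.

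In the phosphatidylinositol 3-kinase complex, the regulatory subunit Pik3r4 (VPS15, chr9:105642995-105687655) fell at day 30. It was at 5.14, 6.03 and 4.88 FPKM in Con7 to Con9 and at 4.82, 4.40 and 3.98 FPKM in CR7 to CR9, and at day 30 at 5.402, 5.17 and 5.81 FPKM in Con mice and 3.39, 4.14 and 3.97 FPKM in CR mice. The groups touched nearly at day 25 and lay well apart at day 30. The fold change was -0.23 (SE 0.10, adjusted p = 0.17) at day 25, and the mean fell by 29.9% at day 30 (-0.42, SE 0.10, adjusted p = 0.014), a call that held in all 22 alternatives. The catalytic subunit Pik3c3 (VPS34) was lower over both days (-0.20, SE 0.08, adjusted p = 0.056). At day 25 Pik3c3 had a fold change of -0.23, like that of Pik3r4, with each CR mouse below each Con mouse (adjusted p = 0.23), and at day 30 it had -0.18 with overlap (adjusted p = 0.30). Becn1, the scaffold known as a tumor suppressor, was at 25.2, 27.9 and 24.5 FPKM in Con7 to Con9 and at 24.6, 29.1 and 25.0 FPKM in CR7 to CR9. On day 30 Becn1 was at 26.0, 28.6 and 24.8 FPKM in Con mice and 23.4, 26.1 and 23.6 FPKM in CR mice, so the groups overlapped at both days (interval -0.20 to 0.23 at day 25 and -0.33 to 0.10 at day 30). Of its exon bases, 29.6% overlap Cntd1 on the opposite strand. Atg14, Uvrag and Ambra1, which select or modulate the complex, had fold changes between -0.05 and 0.12 at both days, and none passed.

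Among the genes that supply and mark the growing membrane, Wipi1 (chr11:109573521-109611389), which binds phosphatidylinositol 3-phosphate on it, fell at both days. It was at 7.90, 8.46 and 7.05 FPKM in Con7 to Con9 and at 5.13, 6.17 and 4.995 FPKM in CR7 to CR9. The later mice had Wipi1 at 5.85, 7.03 and 7.75 FPKM in Con mice and 4.16, 5.42 and 4.92 FPKM in CR mice, again with no overlap. The mean fell by 30.4% at day 25 (-0.45, SE 0.12, adjusted p = 0.035) and fell by 29.7% at day 30 (-0.43, SE 0.12, adjusted p = 0.029). Without Con8, CR7 or CR9 the day 25 call was lost (adjusted p = 0.10, 0.11 and 0.12), and without Con12 or CR10 the day 30 call (adjusted p = 0.11 and 0.12). The related Wipi2 was at 18.0 and 17.0 FPKM in Con and CR at day 25 and at 17.4 and 14.8 FPKM at day 30, and did not pass.

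Atg2a (chr19:6241668-6262304), a lipid transfer protein that feeds the membrane, fell at day 30. Con mice had 12.3, 11.5 and 10.2 FPKM and CR mice 8.08, 8.65 and 8.32 FPKM, a fall of 26.3% with no overlap (-0.40, SE 0.12, adjusted p = 0.039), which was lost without Con10 or CR10 (adjusted p = 0.12 for both). At day 25 the values were 10.8, 14.5 and 12.0 FPKM in Con mice and 9.27, 11.5 and 9.16 FPKM in CR mice, which overlap. The fold change of -0.29 (adjusted p = 0.15) passed with the replicate number as a block (adjusted p = 0.072), without CR8 (adjusted p = 0.078) and with TPM scaling. The homolog Atg2b and the scramblase Atg9a had fold changes from -0.15 to 0.04 and did not pass. Of the exon bases of Atg9a, 41.8% overlap Gm29253 on the same strand.

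Of the 10 conjugation genes, Atg7 and Atg5 fell at day 30. Atg7 (chr6:114643097-114860614), the activating enzyme of both conjugation systems, was at 17.9, 13.7 and 16.6 FPKM in Con mice and at 9.80, 11.03 and 10.4 FPKM in CR mice at day 30. The groups lay apart, and the mean fell by 35.2% (-0.57, SE 0.12, adjusted p = 0.0085), a call kept in all 22 alternatives. At day 25 the mice overlapped, with 14.0, 16.3 and 13.6 FPKM in Con and 12.9, 15.1 and 11.3 FPKM in CR, and the fold change was -0.16 (95% interval -0.42 to 0.11, adjusted p = 0.47).

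Atg5 (chr10:44268339-44364299), which joins with Atg12 and Atg16l1 into the complex that places ATG8 on lipid, was lower by a like amount at both days. At day 25 it was at 17.6, 19.3 and 17.9 FPKM in Con mice and 14.6, 14.2 and 14.9 FPKM in CR mice. By day 30 its levels were 22.1, 16.6 and 22.8 FPKM in Con mice and 15.9, 17.6 and 15.8 FPKM in CR mice, where Con11 lay below CR11. The fold change was -0.31 (SE 0.11, adjusted p = 0.11) at day 25 and -0.29 (SE 0.11, adjusted p = 0.095) at day 30, so that the call at day 30 only was a matter of the threshold. At day 25 it passed with the replicate block (adjusted p = 0.064), without Con11 (adjusted p = 0.045), with TPM scaling and with that day's mice alone. At day 30 the call was lost with median-ratio scaling (adjusted p = 0.18), quantile normalization (adjusted p = 0.15) and on leaving out any mouse but Con11 (adjusted p = 0.10 to 0.29). That call was also lost without a filter on low values and with that day's mice alone. Over both days the fold change was -0.30 (SE 0.08, adjusted p = 0.010).

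The other 8 conjugation genes did not pass at a single day. The conjugating enzymes Atg3 and Atg10 had fold changes of 0.11 and -0.10 at day 25 and of 0.15 and 0.19 at day 30. Atg12 was at 9.88 and 9.73 FPKM in Con and CR at day 25 and at 11.4 and 9.57 FPKM at day 30 (-0.23, SE 0.09, adjusted p = 0.11). Atg16l1 and the proteases Atg4b, Atg4c and Atg4d, which trim ATG8 precursors, lay between -0.09 and 0.17. Atg4a was lower over both days (-0.21, SE 0.07, adjusted p = 0.041), with 1.11, 1.00 and 1.18 FPKM in Con7 to Con9, 0.759, 0.902 and 0.730 FPKM in CR7 to CR9, 1.06, 1.20 and 1.13 FPKM in Con10 to Con12 and 0.690, 1.14 and 0.770 FPKM in CR10 to CR12. The CR mice lay below the Con mice at day 25 and overlapped them at day 30, where CR11 stood apart and the gene passed without it (adjusted p = 0.082). The table places this row at chr3:103643953-103646068, on the retrocopy Atg4a-ps inside Syt6 and not on the X-linked gene, with 99.3% identity, so the value cannot be assigned to Atg4a.

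The ATG8 proteins split. Map1lc3b (LC3B, chr8:121590468-121598047), the usual marker of autophagosomes, was at 33.2, 45.5 and 38.5 FPKM in Con7 to Con9 and at 44.8, 51.0 and 55.0 FPKM in CR7 to CR9, where Con8 lay just above CR7. Levels on day 30 were 38.9, 33.5 and 36.6 FPKM in Con mice and 44.5, 46.8 and 42.5 FPKM in CR mice, with no overlap. The mean was 28.7% higher at day 25 (0.36, SE 0.12, adjusted p = 0.085) and 22.8% higher at day 30 (0.29, SE 0.12, adjusted p = 0.12). Its call at day 25 was lost on leaving out Con7, Con9, CR8, CR9, Con10, Con12, CR10 or CR11 (adjusted p = 0.10 to 0.26). That call was also lost without a filter on low values and with that day's mice alone. At day 30 Map1lc3b passed without Con7 or Con8 (adjusted p = 0.090 and 0.087), with median-ratio scaling (adjusted p = 0.039) and with quantile normalization. Processed pseudogenes close to Map1lc3b in sequence (Gm12727, Gm6054, Gm6055) may share its reads.

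Gabarapl1 (chr6:129533192-129542331), the most abundant ATG8 transcript in these livers, fell at day 30. It was at 252, 225 and 238 FPKM in Con mice and at 167, 176 and 178 FPKM in CR mice, a fall of 27.2% with no overlap (-0.45, SE 0.13, adjusted p = 0.038) that was lost without Con10 or CR10 (adjusted p = 0.11 and 0.12). At day 25 the Con mice were spread from 164 to 241 FPKM around the CR mice (174 to 211 FPKM), and the fold change of -0.08 turned to 0.04 without Con8. Map1lc3a (LC3A) was lower over both days (-0.30, SE 0.12, adjusted p = 0.076), though its row in the table is a non-coding transcript of the gene. Gabarap and Gabarapl2 did not pass, with fold changes of 0.01 and 0.19 at day 25 and of 0.15 and 0.08 at day 30. With these opposite movements, the 5 ATG8 genes summed to 383 to 494 FPKM in Con and 387 to 447 FPKM in CR at day 25, and to 447 to 476 FPKM in Con and 398 to 425 FPKM in CR at day 30.

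**Figure D3:**
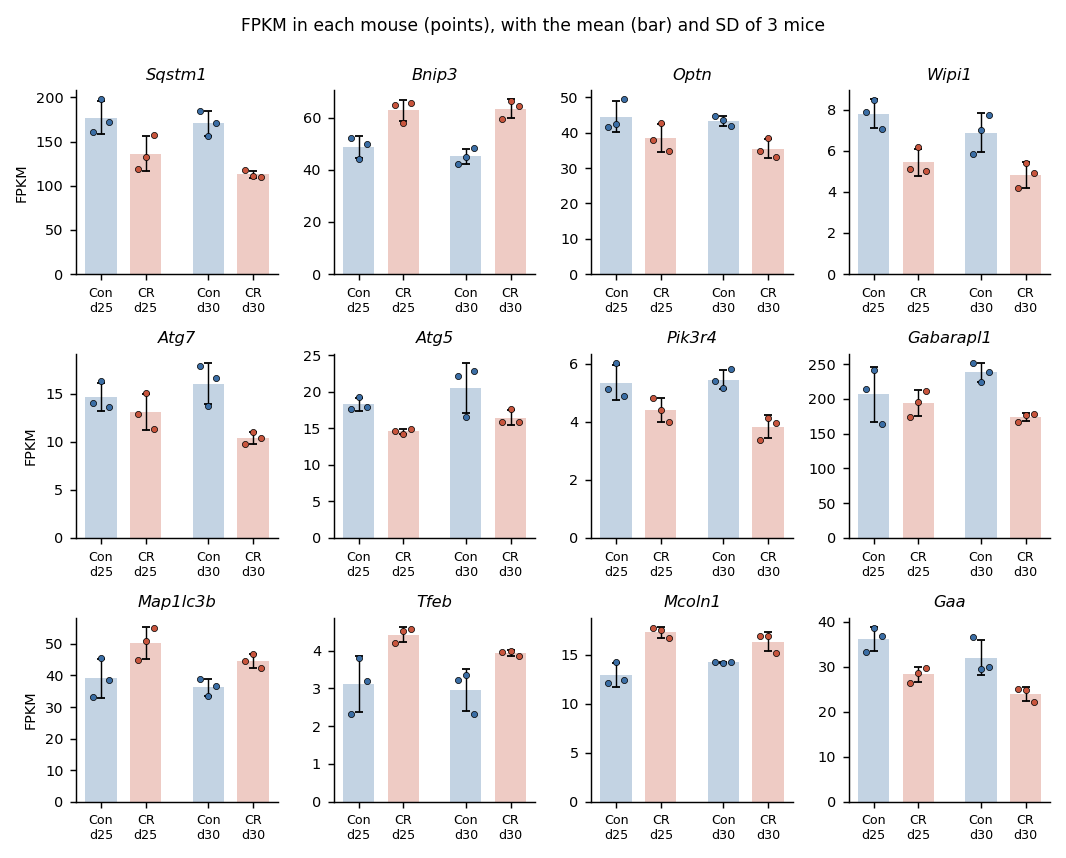
FPKM in each mouse (points) with the group mean (bars) and SD of 3 mice (error bars) for 12 of the genes, with Con in blue and CR in red at day 25 (d25) and day 30 (d30). Sqstm1, Wipi1, Pik3r4 and Gaa are lower, and Bnip3, Tfeb and Mcoln1 higher, in every CR mouse than in every Con mouse at both days.

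The regulator Tfeb (chr17:47785744-47792416) and the lysosomal gene Mcoln1 rose at day 25. Of the 10 genes with CACGTG in the promoter, Mcoln1 and Bnip3 rose at that day, Gaa fell and 7 did not pass. A link between Tfeb and any of these genes was not tested. Tfeb, which moves to the nucleus when mTORC1 is inactive, was at 2.33, 3.80 and 3.20 FPKM in Con7 to Con9 and at 4.19, 4.52 and 4.57 FPKM in CR7 to CR9. At day 30 it was at 3.22, 3.36 and 2.33 FPKM in Con mice and 3.96, 3.999 and 3.86 FPKM in CR mice. CR mice lay above Con mice at both days. The mean was 42.4% higher at day 25 (0.42, SE 0.13, adjusted p = 0.070) and 32.8% higher at day 30 (0.33, SE 0.13, adjusted p = 0.11). These means rest on 97 to 209 reads per library. The day 25 call was lost without Con7, Con9, CR7, CR8 or CR9 (adjusted p = 0.12 to 0.23), without a filter on low values and with that day's mice alone. At day 30 the gene passed without Con7 or Con8 (adjusted p = 0.060 and 0.081) and with median-ratio scaling (adjusted p = 0.052). It also passed then with quantile normalization and in a fit of the recovered reads with voom. Its relative Tfe3 was at 6.47 and 5.93 FPKM in Con and CR at day 25 and at 6.62 and 5.95 FPKM at day 30, and did not pass.

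Mcoln1 (chr8:3500519-3515231) encodes TRPML1, the lysosomal channel that releases calcium. It was at 12.1, 14.3 and 12.4 FPKM in Con7 to Con9 and at 17.7, 17.5 and 16.7 FPKM in CR7 to CR9, and its rise of 33.7% at day 25 (0.40, SE 0.09, adjusted p = 0.015) held in all 23 alternatives, each mouse left out included. At day 30 the Con mice had 14.2, 14.2 and 14.3 FPKM and the CR mice 16.9, 16.9 and 15.2 FPKM, again apart, with a fold change of 0.19 (SE 0.09, adjusted p = 0.16) that passed with median-ratio scaling (0.26, adjusted p = 0.031) and quantile normalization (0.25, adjusted p = 0.035).

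Of the 8 other lysosomal genes, Gaa fell at both days, Ctsa fell over both days and 6 did not pass. Gaa (chr11:119267963-119285458), the acid alpha-glucosidase that degrades glycogen in lysosomes, was at 33.2, 38.5 and 36.8 FPKM in Con7 to Con9 and at 26.4, 28.6 and 29.8 FPKM in CR7 to CR9. Levels of Gaa at day 30 were 36.5, 29.5 and 30.0 FPKM in Con mice and 25.0, 24.8 and 22.2 FPKM in CR mice. No CR mouse reached a Con mouse at either day. The mean fell by 21.8% at day 25 (-0.34, SE 0.11, adjusted p = 0.065) and fell by 25.0% at day 30 (-0.40, SE 0.11, adjusted p = 0.025). The call at day 25 was lost on leaving out any mouse of that day but Con7 (adjusted p = 0.11 to 0.18) and with that day's mice alone. The call at day 30 held in all 22 alternatives.

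Ctsa, the protective protein cathepsin A, was at 44.2, 53.1 and 48.2 FPKM in Con7 to Con9 and at 38.8, 47.9 and 39.8 FPKM in CR7 to CR9, which overlap. For day 30, Ctsa was at 46.7, 41.5 and 42.9 FPKM in Con mice and 38.1, 37.5 and 34.2 FPKM in CR mice, which do not. The fold change was -0.22 (SE 0.07, adjusted p = 0.033) over both days, -0.20 (adjusted p = 0.28) at day 25 and -0.25 (adjusted p = 0.13) at day 30. Ctsa passed with quantile normalization at day 25 (-0.24) and day 30 (-0.23), and with TPM scaling at day 30 (-0.29). It shares 13.5% of its exon bases with Pltp on the opposite strand, at a mean of 20.9 FPKM.

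None of the main lysosomal proteases and membrane proteins passed at a day. Ctsd, the aspartic protease cathepsin D, was at 130, 156 and 150 FPKM in Con7 to Con9 and 134, 153 and 147 FPKM in CR7 to CR9, and at 151, 125 and 128 FPKM in Con mice and 144, 141 and 133 FPKM in CR mice at day 30. The groups overlapped at both days, and the interval of the fold change ran from -0.24 to 0.23 at day 25 and from -0.18 to 0.29 at day 30. Of the exon bases of Ctsd, 31.5% overlap Gm49369 on the same strand. Lamp1, a heavily glycosylated protein of the lysosomal membrane, was at 238, 253 and 239 FPKM in Con7 to Con9 and 227, 255 and 242 FPKM in CR7 to CR9. At day 30 it was at 259, 258 and 263 FPKM in Con mice and 231, 232 and 241 FPKM in CR mice, apart but with a fold change of only -0.15 (95% interval -0.34 to 0.04, adjusted p = 0.27). With quantile normalization Lamp1 passed at day 30 (-0.24, adjusted p = 0.095). Lamp2, a receptor of chaperone-mediated autophagy in one of its isoforms, had fold changes of -0.12 at day 25 and -0.25 at day 30 (adjusted p = 0.19). At day 30 each CR mouse lay below each Con mouse for Lamp2, with 169, 211 and 211 FPKM against 228, 226 and 247 FPKM. The cysteine protease Ctsb had 0.02 and 0.12, and at day 30 each CR mouse lay above each Con mouse, with 95.3, 98.4 and 92.3 FPKM against 91.2, 84.3 and 88.1 FPKM. Its relative Ctsl had -0.20 and -0.06, and the hexosaminidase subunit Hexa 0.06 and -0.03. The 9 lysosomal genes summed to 976 to 1040 FPKM in Con and 908 to 983 FPKM in CR at day 25, and to 906 to 1012 FPKM in Con and 885 to 925 FPKM in CR at day 30, with overlap at both days.

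Precision set a limit on the genes that did not pass. The 95% interval of the fold change lay within 0.5 on either side of 0 for 33 of the 39 such genes at day 25 (84.6%, against 71.9% of all genes that did not pass) and for 30 of the 36 at day 30 (83.3%, against 71.9%). The median width of the interval to either side was 0.23 for the 46 genes.

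The CR effects of the 2 days resembled each other. Across the 46 genes the fold changes at day 25 and day 30 had a Pearson correlation of 0.82 and a Spearman correlation of 0.81, and 39 had the same sign, beside a Pearson correlation of 0.81 over all genes tested. These are descriptions across genes measured in the same libraries, and genes are not independent replicates. Of the 46 genes, 31 had the more negative fold change at day 30, with a median difference of -0.06 (-0.03 over all genes tested).

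**Figure D4:**
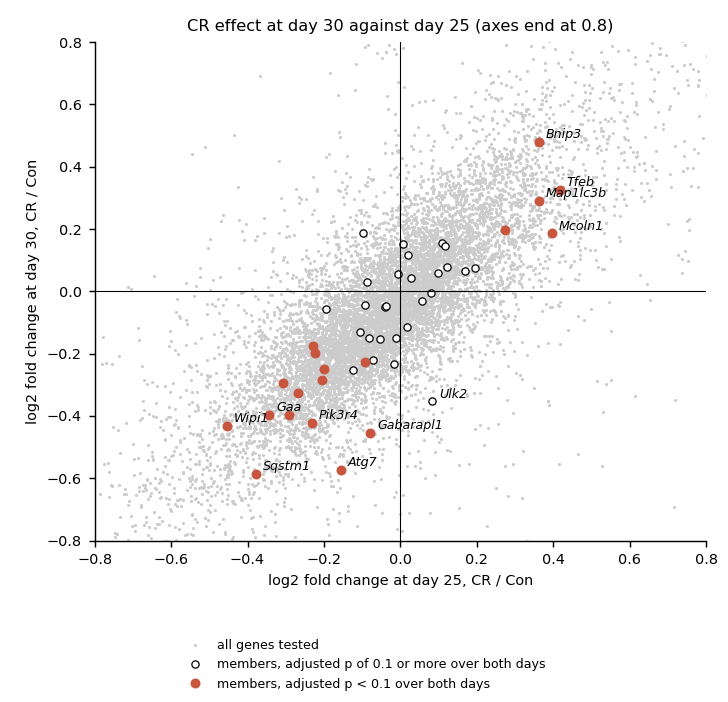
Log2 fold change of CR over Con at day 30 (vertical) against day 25 (horizontal), with all genes tested in gray, the 19 of the 46 genes that passed over both days in red and the others as open circles. Bnip3 and Sqstm1 lie at the 2 ends of the diagonal, while Atg7 and Gabarapl1 lie below it, passing at day 30 only.

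The change of the CR effect from day 25 to day 30, the interval in which the study placed its transition, passed for 0 of the 46 genes in limma and for 0.00944% of genes tested. The unadjusted p was under 0.05 for 2 genes, Atg7 and Ulk2, and voom on the recovered reads also called 0 of the 46. The difference was -0.42 for Atg7 (SE 0.17, unadjusted p = 0.033, adjusted p = 1.00), -0.44 for Ulk2 (SE 0.20, unadjusted p = 0.048), -0.37 for Gabarapl1 (SE 0.19, unadjusted p = 0.072) and -0.21 for Sqstm1 (SE 0.17, unadjusted p = 0.25). The calls of Atg2a, Atg5, Atg7, Pik3r4, Gabarapl1 and Optn at day 30 but not at day 25 are therefore not shown to differ between the days. Between day 25 and day 30 in CR mice, 0 of the 46 genes passed in limma and by voom (0.321% of genes tested in limma), with an unadjusted p under 0.05 for Atg7 (-0.30, SE 0.12) and Atg10 (0.29, SE 0.13). Between the days in Con mice 0 passed by either tool (0.0% of genes tested in limma), with an unadjusted p under 0.05 for Atg16l1 alone (-0.26, SE 0.10).

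Genes with CACGTG in the promoter went both ways, and so did those without it. Of the 10, over both days 2 rose (Bnip3 and Mcoln1), 3 fell (Atg5, Ctsa and Gaa) and 5 did not pass (Atg14, Atg3, Ctsd, Ctsl and Lamp1). Of the 26 other genes with a promoter, 2 rose, 7 fell and 17 did not pass. Among all genes tested 40.6% passed over both days, 14.5% as higher and 26.1% as lower. The median fold change over both days was -0.03 with the motif and -0.09 without it, and -0.05 over all genes tested. In the promoters from 250 bases before to 50 bases after the start, Mcoln1 had 2 copies and rose at day 25. Atg3, Ctsa and Ctsd also had 2 there and did not pass at either day, though Ctsa fell over both days. Lamp1 with 4 did not pass at either day.

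Genes of the pathway outside the 46 showed where these changes stood among their neighbors. Of 24 other autophagy genes, 2 fell and 0 rose at day 25 (8.33% called, against 14.9% of genes tested), and 5 fell and 0 rose at day 30 (20.8%, against 24.7%). The 4 with the smallest adjusted p all fell at day 30, namely Tbk1, the kinase that phosphorylates Optn and p62 (-0.43, SE 0.08, adjusted p = 0.0057), Epg5, a tether for fusion with the lysosome (-0.33, SE 0.09, adjusted p = 0.023), Plekhm1, an adaptor for the same step (-0.31, SE 0.09, adjusted p = 0.031), and Tecpr1 (-0.39, SE 0.12, adjusted p = 0.036). Tbk1 and Plekhm1 also fell at day 25 (adjusted p = 0.079 and 0.062). With the replicate block at day 25 both calls were lost (adjusted p = 0.101 for both), Tax1bp1, a cargo receptor, was lower (adjusted p = 0.073), and Trp53inp1 and Trp53inp2, which bind ATG8 proteins, were higher (0.65 and 0.27, adjusted p = 0.012 and 0.095). This gave 2 higher and 1 lower (12.5%, against 19.6% of genes tested), and the last 3 genes are named after their values were seen. The count at day 25 was 0 with that day's mice alone and without Con7, CR7, CR8 or CR9, while the falls of Tbk1 and Epg5 at day 30 held whichever mouse was left out. Their median fold change was -0.08 at day 25 and -0.06 at day 30.

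Of 40 other lysosomal enzymes and membrane proteins, 2 rose and 5 fell at day 25 (17.5%, against 14.9% of genes tested). At day 30, 1 rose and 5 fell (15.0%, against 24.7%). With the replicate block, Manba was also lower at day 25 (adjusted p = 0.092). The arylsulfatase Arsa, which degrades sulfatide, had the smallest adjusted p and a larger change than any of the 46 genes, from 19.2 to 9.70 FPKM at day 25 (-0.93, SE 0.24, adjusted p = 0.035) and from 20.2 to 9.37 FPKM at day 30 (-1.12, SE 0.24, adjusted p = 0.0093). Acp2, the lysosomal acid phosphatase, fell at day 30 (-0.43, SE 0.11, adjusted p = 0.023), Ctss, a cathepsin of macrophages and other antigen-presenting cells, fell at day 25 (-0.59, SE 0.15, adjusted p = 0.035), and Sgsh, a heparan sulfatase, fell at both (-0.45 and -0.46, SE 0.14, adjusted p = 0.060 and 0.040). The calls of Arsa and Acp2 at day 30 held whichever mouse was left out, that of Arsa at day 25 was lost without CR9, and that of Ctss without Con8 or CR7. Sgsh lost its day 25 call without Con8, Con9, CR7 or CR9, with quantile normalization, without a filter on low values and with that day's mice alone. At day 30 Sgsh lost its call without Con10 or CR10. It lay near the filter of 1 FPKM, with group means from 2.06 to 1.265 FPKM at day 25 and from 1.80 to 1.04 FPKM at day 30.

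The subunits of the V-ATPase, the proton pump that acidifies the lysosome, included some that rose and none that passed as lower. Of 16 subunits, 2 rose and 0 fell at day 25 (12.5%, against 14.9% of genes tested), 3 rose and 0 fell at day 30 (18.8%, against 24.7%), and 6 rose and 0 fell over both days (37.5%, against 40.6%). At day 30, 9 of the 16 had a fold change below 0, the lowest at -0.25, and for 3 of them each CR mouse lay below each Con mouse. Atp6v1e1 went from 51.6 to 67.0 FPKM at day 25 (0.37, SE 0.10, adjusted p = 0.036) and from 53.9 to 67.7 FPKM at day 30 (0.32, SE 0.10, adjusted p = 0.042). Atp6v1d rose at both days (0.31 and 0.28, SE 0.09, adjusted p = 0.039 and 0.043) and Atp6v0e at day 30 (0.30, SE 0.11, adjusted p = 0.087). The median fold change of the 16 was 0.14 at day 25 and -0.01 at day 30, where it was 0.06 with median-ratio scaling. The count was 0 at day 25 without Con7 and 0 at day 30 without CR11, and with the replicate block Atp6v0b was also higher at day 25 (adjusted p = 0.052).

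Markers of other liver cells moved with the diet and are given beside these results. Of 8 markers of macrophages and Kupffer cells, cells rich in lysosomes, 5 fell at day 25 (Clec4f, Csf1r, Vsig4, Cd5l and C1qa) and 0 rose. Their sum was 51.9 to 89.9 FPKM in Con mice, with Con8 highest, and 33.8 to 42.8 FPKM in CR mice, without overlap. At day 30 it was 47.1 to 69.3 FPKM in Con and 45.9 to 63.5 FPKM in CR, with overlap, and 1 marker rose (Marco). None of the 8 was at 0. The part of the macrophage markers in the results of either day was not tested. Without Con8, the 3 falls at day 25 (Sqstm1, Wipi1 and Gaa) and the rise of Bnip3 no longer passed, and Map1lc3b, Mcoln1 and Tfeb still rose. Without CR7 the 3 falls were lost as well, with the rises of Bnip3 and Tfeb. Of 6 stellate cell markers, 1 was higher at day 25 and 3 at day 30, with sums of 49.9 to 58.4 FPKM in Con and 60.5 to 64.8 FPKM in CR at day 25, and 45.7 to 55.6 FPKM and 63.0 to 79.5 FPKM at day 30. Of 5 markers of sinusoidal endothelial cells, Stab2 rose at day 25 and Stab1 and Stab2 at day 30. Their sums overlapped at day 25 and at day 30 were 15.6 to 17.1 FPKM in Con and 20.4 to 22.5 FPKM in CR. The 5 lymphocyte markers were too low to test, with sums of 1.13 to 1.67 FPKM in Con and 0.416 to 0.795 FPKM in CR at day 25, and 1.36 to 2.22 FPKM and 0.617 to 1.08 FPKM at day 30, apart at both days. Of the 6 hepatocyte markers, Alb and Cps1 rose at day 30, when the sums did not overlap (35813 to 44689 FPKM in Con and 52154 to 62585 FPKM in CR). Most of this sum was Alb, at 25401 to 33010 FPKM in Con and 41047 to 51723 FPKM in CR. Apoa1 did not pass, but each CR mouse lay below each Con mouse (5504, 5524 and 4807 FPKM against 6596, 6127 and 5860 FPKM). For Ttr, Hnf4a and Asgr1 the groups overlapped at day 30. The part of these shifts was not tested either.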

How the data were processed

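The 12 libraries came from liver RNA of 3 Con and 3 CR mice per day. The authors sequenced paired ends (a single lane), used CASAVA 1.8.2 and FastQC, and mapped reads to mm10 with BWA, which does not split reads across introns. The deposited table holds FPKM values. Its header says that HOMER counted exon reads, with 1 transcript per gene, and no scaling between libraries is recorded. The table's own coordinates are used. Since FPKM are not counts, a count model was not the main test. The steps between low FPKM values gave back whole reads (100% of 1500 low values per library were whole), and this depth limits the precision for low genes.

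The tested value was log2(FPKM + 1), for 10593 genes at 1 FPKM or more in at least 3 libraries. It was fitted in limma (version 3.58.1, under R 4.3.3) with 1 coefficient per group, moderated variances and a mean-variance trend. The pseudocount makes fold changes of low genes smaller than the ratio of their FPKM. Tests are 2-sided, with Benjamini-Hochberg adjustment over all genes tested, and the threshold of 0.1 is the false discovery rate that the legend of a supplemental figure gives. That legend also gives a minimum fold change (1 on the log2 scale), which was not required for a call here. An exact permutation test of 3 against 3 mice cannot go below p = 0.1 and was not used. The fit was tested on simulated data. Python 3.11.15 (pandas 2.3.3, numpy 2.4.6, matplotlib 3.10.9) made the tables and plots.

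Replicate numbers at day 25 come from the labels. The labels do not say that a shared number marks a pair or a batch. Over all genes tested, deviations from the group mean correlated at 0.37, 0.31 and 0.11 between same-numbered Con and CR mice. Between mice of different number they correlated at -0.29 to 0.01. Deviations within a group of 3 are tied to each other, so these correlations are not independent. The fit with the number as a block is given where it changes a call. At day 30 the columns of the Con mice could not be matched to numbered samples, and no block was fitted.

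The members and lists were chosen with earlier results of these data known. Values in each mouse are given for up to 16 genes with the smallest adjusted p among those under 0.1 at a day or over both days, and for Ulk1, Becn1, Lamp1 and Ctsd whatever they showed. Of these, Atg13 is given by group means and Gabarapl1 at day 25 by ranges. The values of Ulk2 in each mouse were added after they were seen. Ulk2, Lamp2 and Ctsb lie outside this rule and are given in each mouse only for day 30, where their groups did not overlap. From each list of other genes, at most 4 are named by adjusted p, and others only where the replicate block changed a call. Alternatives covered the pseudocount, the filter, scaling (median ratio, TPM, quantile), the trend, voom on recovered reads, the mice in the model, the thresholds, the block and leaving out each mouse. Promoters were taken where the RefSeq start lay within 500 bases of the start of the table's row.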

Additional observations from a re-analysis of the deposited data

How the results depend on the processing

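The count of genes that passed at day 25 was 7 (14.9% of genes tested passed) and went to 4 without a filter on low values (Gaa, Bnip3, Mcoln1 and Wipi1, 7.55%). With that day's mice alone the count was 3 (11.5%), namely Mcoln1, Wipi1 and Atg5, of which Atg5 was not among the 7. At an adjusted p under 0.05 the count was 3 (9.15%). When a mouse was left out it ranged from 2 (without CR7 or CR9, 9.48% and 8.43%) to 8 (without Con11, 14.8%), with 3 without Con8 or Con9 (11.8% and 10.1%) and 4 without CR8 (13.0%). With the replicate block it was 9 (19.6%), with all 7 kept and Atg2a and Atg5 added, and the block changed no other call among the 46. The count at day 30 was 10 (24.7%) and ranged from 5 (without CR10, 14.1%) to 13 (without Con7, 25.3%), with 6 without Con10 (17.8%). Over both days it was 19 and ranged from 14 to 21, where 34.9% to 39.6% of genes tested passed. With a log2 fold change of 1 or more required, each count was 0. A fit with fewer mice has less power, and the cause of the lower counts was not tested.

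The median fold change at day 30 went from -0.0853 to -0.0121 with median-ratio scaling, with 23 genes above and 23 below 0. At day 25 it was -0.0458 and turned to 0.0005 without Con8. Among genes that did not pass, signs turned at day 25 with median-ratio scaling for Lamp1 (0.0377) and Ctsd (0.0432), and at day 30 with quantile normalization for Ctsd (-0.0209). Leaving out a mouse at day 25 gave ranges of -0.236 to 0.0413 for Gabarapl1, -0.0127 to 0.163 for Ulk1, -0.0549 to 0.0721 for Becn1, -0.0509 to 0.0317 for Lamp1 and -0.0824 to 0.0480 for Ctsd. The directions of the other named genes of the 46 at each day were kept in the alternatives run.

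Depth limits the low genes most, since the row named Atg4a had 30 to 54 reads and Tfeb 97 to 209 reads per library. The median absolute fold change of the 46 genes was 0.11 at day 25 and 0.18 at day 30, below the median width of the interval to either side, 0.23.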
